A study of Mus musculus with 6 samples.

Results

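The receptor chains of the common gamma chain cytokines were followed across 3 sorted populations of antigen-experienced CD4+ T cells. The rule listed 8 genes, Il2ra, Il2rb, Il2rg, Il4ra, Il7r, Il9r, Il15ra and Il21r, and took every probe set that the platform's annotation assigns to them. A total of 7 of the 8 genes had a probe set, 1 each, among 23410 named probe sets. Il2rg, the common gamma chain itself, was not analysed here.

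RNA came from CD4+ CD44+ T cells of the draining lymph nodes of male Bcl6_RFP reporter mice, aged 8 to 10 weeks and immunised with KLH in CFA. All 3 groups share this strain and immunisation, and the labels tell them apart by the sort gate, on the chemokine receptor Cxcr5 and the red fluorescent Bcl6 reporter, which reads fluorescence and not Bcl6 protein. They were Cxcr5+Bcl6+ (the gate of follicular helper T cells), Cxcr5+Bcl6- and Cxcr5-Bcl6-, with 2 Affymetrix arrays each. The series calls the arrays of a group biological replicates, but the sources used here do not state pooling of animals, the day of sorting or any restimulation, and the labels name no gate on CD25 or Foxp3.

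Cytokines of this family share the gamma chain. It pairs with other chains, some of them shared between ligands, and signals through the kinases Jak1 and Jak3 to STAT proteins. Interleukin 2 is bound by the alpha chain Il2ra, the beta chain Il2rb and the gamma chain together. Interleukin 15 uses the same beta and gamma chains with its own alpha chain, Il15ra. Interleukin 2 signals mainly through STAT5, which is known to oppose Bcl6 and the follicular helper fate, whereas IL-21 acts mainly through STAT3.

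Levels are log2 probe-set values as the authors deposited them, and a difference is the first group minus the second on that scale. A difference was called at an adjusted p under 0.05 over all named probe sets (limma). Arrays of a group correlated at r of 0.9966 to 0.9985 across probe sets, and the sort genes ran as labelled on every array. Bcl6 stood at 11.45 and 11.55 on the Cxcr5+Bcl6+ arrays, 10.55 and 10.56 on the Cxcr5+Bcl6- arrays and 10.31 on each Cxcr5-Bcl6- array. Cxcr5 stood at 11.01 and 10.98, at 9.98 and 9.91, and at 7.61 and 7.34 in the same groups. All 7 measured T cell markers, Cd3e and Cd4 among them, lay above the dim reference on all 6 arrays. That reference was the 95th percentile of 1223 olfactory, vomeronasal and trace-amine receptor probe sets, a group taken as likely silent in T cells, and it lay at 7.30 to 7.73. Bcl6 was well above it in both Bcl6- groups too, so that label does not mean absence of Bcl6 RNA. The Cxcr5+Bcl6+ arrays had a narrower spread of levels (interquartile range 2.91 and 3.05) than the other 4 (3.15 to 3.32). The median of the reference probe sets was higher on the Cxcr5+Bcl6+ arrays by 0.22 against Cxcr5-Bcl6- and by 0.30 against Cxcr5+Bcl6-, so each array was also centred on that median as an alternative. That centring moved the median difference of all named probe sets to -0.20 and -0.27 in these comparisons, against 0.04 and 0.05, and lowered the share of rises among calls to 16.4% and 5.59%, against 49.8% and 50.8%. Between the 2 Bcl6- populations, always given as Cxcr5+Bcl6- minus Cxcr5-Bcl6-, rises made up 67.5% of calls with it and 46.8% without. Small rises in Cxcr5+Bcl6+ cells therefore depended on the scaling. The shift was not even across levels. Without that centring, named probe sets above the median level differed by a median of -0.05 against Cxcr5-Bcl6- and -0.05 against Cxcr5+Bcl6- cells. Centring on dim probe sets may therefore not suit brighter ones, here and in the results below.

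Receptor chains were lower in Cxcr5+Bcl6+ cells, except the interleukin 9 receptor. Against Cxcr5-Bcl6- cells 6 of the 7 measured chains fell and 1 rose, with a median difference of -1.58 against 0.04 over all named probe sets. In that comparison 35.3% of all named probe sets passed, 17.6% as rises, 17.7% as falls and 3.66% as falls of at least 2-fold. Il2ra, Il15ra, Il4ra and Il7r were among the falls of at least 2-fold. Against Cxcr5+Bcl6- cells 6 chains were again lower and 1 higher, with a median of -1.28 against 0.05 (26.4% of all named probe sets passed, 13.4% as rises and 13% as falls). The 2 comparisons share the Cxcr5+Bcl6+ arrays and are not independent. Between the Bcl6- populations 3 chains fell and 4 did not pass (median -0.14 against -0.03). Of all named probe sets 11.1% passed there, 5.22% as rises and 5.93% as falls. These shares are also the background for the counts of the gene lists below. Because the RNA was from bulk sorts, fewer cells of a type and less RNA per cell cannot be told apart.

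**Figure D1:**
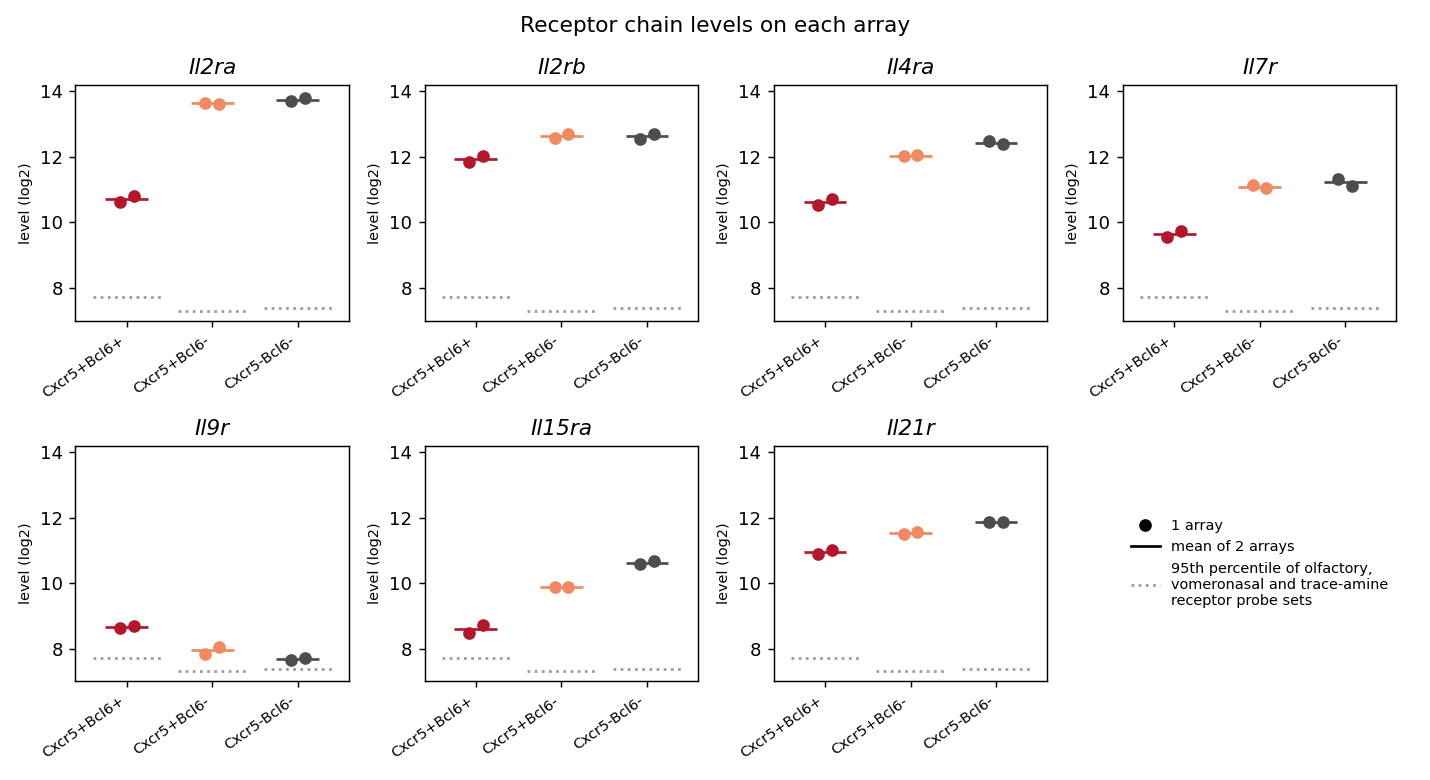
Level (log2) of each receptor chain on each of the 6 arrays, with points for arrays, bars for group means and a dotted line for the 95th percentile of olfactory, vomeronasal and trace-amine receptor probe sets. Il2ra lies at 10.63 and 10.81 on the Cxcr5+Bcl6+ arrays and at 13.63 or above on the other 4, and Il9r runs the other way.

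The alpha chain of the interleukin 2 receptor, CD25, is what lets cells bind interleukin 2 with high affinity. Il2ra (probe set 10469278) stood at 10.63 and 10.81 in Cxcr5+Bcl6+ cells, at 13.64 and 13.63 in Cxcr5+Bcl6- cells, and at 13.72 and 13.79 in Cxcr5-Bcl6- cells. Both Cxcr5+Bcl6+ arrays were far below the other 4, which lay close together. The level was 8.21-fold lower than in Cxcr5-Bcl6- cells (95% interval 7.11 to 9.48, adjusted p = 2.05e-09) and 7.56-fold lower than in Cxcr5+Bcl6- cells (6.55 to 8.73, adjusted p = 3.69e-09). These differences were of larger size than 99.9% of all named probe sets in each comparison. The Bcl6- populations differed by -0.12 (95% interval -0.33 to 0.09, adjusted p = 0.574). Even in Cxcr5+Bcl6+ cells Il2ra stayed well above the dim reference.

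Il2ra is also a marker of regulatory T cells, and 8 of 10 other listed markers of those cells were lower in the same comparison. In Cxcr5+Bcl6+ cells the linear levels of the 10 listed markers summed to 18330 and 19550, in Cxcr5+Bcl6- cells to 42080 and 42090, and in Cxcr5-Bcl6- cells to 47170 and 48790. Such sums are weighted to the brightest genes, which here were Tnfrsf9, Ctla4 and Tnfrsf18 on every array. Foxp3, which specifies the regulatory lineage, stood at 9.72 and 9.76 in Cxcr5+Bcl6+ cells, 12.34 and 12.49 in Cxcr5+Bcl6- cells and 12.50 and 12.77 in Cxcr5-Bcl6- cells. Of the 10 markers, 8 fell between Cxcr5+Bcl6+ and Cxcr5-Bcl6- cells, led by Gpr83 (-3.49), Foxp3 (-2.89) and Lrrc32 (-2.86), while Ikzf2 (-0.20) and Nrp1 (-0.09) did not pass, although all 10 fell with centring on the dim reference. None of the 10 was at the dim reference on every array. In the comparison of the Bcl6- populations Gpr83 (-1.59), Lrrc32 (-1.01) and Ikzf4 (-0.58) fell, Itgae rose (0.37), and Foxp3 (-0.22, adjusted p = 0.272) and Il2ra did not pass. The part of these markers in the Il2ra result was not tested.

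**Figure D2:**
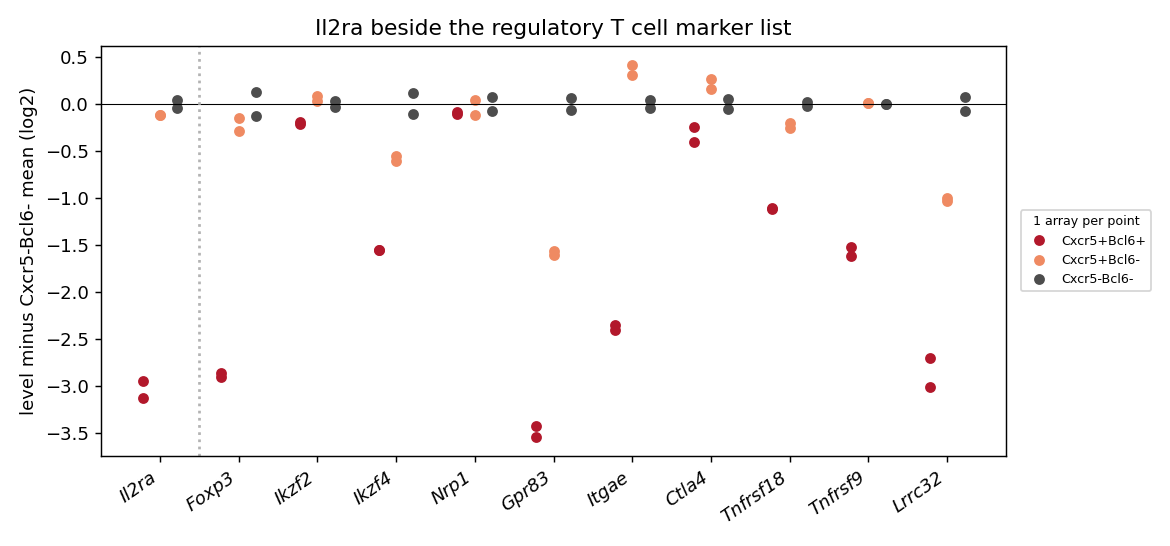
Level of Il2ra and of the 10 regulatory T cell markers on each array, minus the mean of the 2 Cxcr5-Bcl6- arrays (log2), 1 point per array. Il2ra and Foxp3 lie about as far below 0 in Cxcr5+Bcl6+ cells (-3.04 and -2.89), whereas Ikzf2 and Nrp1 lie at -0.20 and -0.09.

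Il2rb, the signalling beta chain shared by the interleukin 2 and interleukin 15 receptors, had the smallest fall of the 6 against Cxcr5-Bcl6- cells. Its probe set (10430344) read 11.86 and 12.03 in Cxcr5+Bcl6+ cells, 12.59 and 12.71 in Cxcr5+Bcl6- cells, and 12.56 and 12.70 in Cxcr5-Bcl6- cells. The Cxcr5+Bcl6+ arrays were again the low pair, and the other 2 groups overlapped. Il2rb was 1.61-fold lower than in Cxcr5-Bcl6- cells (95% interval 1.38 to 1.87, adjusted p = 0.000216) and 1.63-fold lower than in Cxcr5+Bcl6- cells (1.40 to 1.90, adjusted p = 0.00034). A difference of 0.02 between the Bcl6- populations missed the threshold (95% interval -0.20 to 0.24, adjusted p = 0.951). The intervals of the Il2ra and Il2rb differences did not overlap (-3.24 to -2.83 and -0.90 to -0.47 against Cxcr5-Bcl6- cells), and the gap between them was not itself tested.

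Il15ra binds interleukin 15 and presents it to neighbouring cells that carry Il2rb and the gamma chain. Il15ra (probe set 10469289) read 8.48 and 8.71 in Cxcr5+Bcl6+ cells, 9.88 on both arrays of Cxcr5+Bcl6- cells, and 10.59 and 10.67 in Cxcr5-Bcl6- cells. The 3 groups formed a ladder with no overlap. The level in Cxcr5+Bcl6+ cells was 4.09-fold lower than in Cxcr5-Bcl6- cells (95% interval 3.52 to 4.75, adjusted p = 4.79e-08) and 2.43-fold lower than in Cxcr5+Bcl6- cells (2.09 to 2.82, adjusted p = 3.04e-06). Cxcr5+Bcl6- cells were 1.68-fold below Cxcr5-Bcl6- cells (1.45 to 1.96, adjusted p = 0.000497), the largest of the chain differences between those groups. Myeloid cells also make Il15ra, and the summed linear level of 12 myeloid and dendritic cell markers was 1926 and 1928 in Cxcr5+Bcl6+ cells, 2557 and 2560 in Cxcr5+Bcl6- cells and 8136 and 8310 in Cxcr5-Bcl6- cells. Of these markers 9 fell and 1 rose in Cxcr5+Bcl6+ against Cxcr5-Bcl6- cells, and likewise 9 fell and 1 rose in Cxcr5+Bcl6- against Cxcr5-Bcl6- cells. Itgam, Csf1r and Clec9a were not above the dim reference on any array. The list's part in the Il15ra result, or in those of the other chains such as Il4ra and Il21r, was not tested.

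The genes of both alpha chains lie next to each other on chromosome 2, with 0 protein-coding genes between them in the RefSeq order. Their promoter windows are shown because these chains had the 2 largest falls against Cxcr5-Bcl6- cells, and that of Il7r because it held matches to STAT and ETS motifs. RefSeq's table for GRCm38.p6 gave windows of 250 bases before to 50 bases after a start for 7 of the 8 genes, 8 windows in all, of which 2 were for Il15ra. The windows below are chr2:11642542-11642841 (plus strand), chr2:11705462-11705761 (plus strand, the downstream of its starts) and chr15:9529827-9530126 (minus strand), each 5′ to 3′, with capitals marking matches to the motifs named after them.
Il2ra: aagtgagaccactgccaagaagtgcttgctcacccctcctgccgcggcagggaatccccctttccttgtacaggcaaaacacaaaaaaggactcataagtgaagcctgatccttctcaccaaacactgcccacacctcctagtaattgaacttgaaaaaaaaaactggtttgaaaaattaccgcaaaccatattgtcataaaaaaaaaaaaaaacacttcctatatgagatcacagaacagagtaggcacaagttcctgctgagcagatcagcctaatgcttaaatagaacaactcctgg
Il15ra: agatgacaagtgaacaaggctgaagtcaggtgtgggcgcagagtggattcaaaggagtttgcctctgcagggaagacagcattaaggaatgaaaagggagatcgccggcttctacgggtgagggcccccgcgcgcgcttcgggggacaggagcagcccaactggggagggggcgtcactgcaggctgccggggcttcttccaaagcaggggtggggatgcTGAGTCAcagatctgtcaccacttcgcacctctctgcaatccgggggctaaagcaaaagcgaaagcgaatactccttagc
Il7r: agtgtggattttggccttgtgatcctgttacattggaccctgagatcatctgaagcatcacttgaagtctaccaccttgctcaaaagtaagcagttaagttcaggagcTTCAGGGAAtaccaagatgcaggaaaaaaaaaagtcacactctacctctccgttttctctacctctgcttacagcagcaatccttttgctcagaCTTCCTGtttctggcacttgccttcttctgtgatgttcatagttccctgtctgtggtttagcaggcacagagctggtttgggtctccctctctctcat

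The motifs, chosen after the sequences had been seen, were searched on both strands. They were TTCNNNGAA for STAT factors, CAGGAAG for ETS factors and TGANTCA for AP-1, with no overlap among the matches shown. The Il7r window held 1 STAT match, TTCAGGGAA, and 1 ETS match on the reverse strand, and the Il15ra window held 1 AP-1 match. These letters were not found in the Il2ra window. Over 32851 promoter windows of 300 bases the shares with a match were 8.3% for STAT, 13.3% for ETS and 7.81% for AP-1. Of the other windows Il2rg held an ETS match, and the upstream Il15ra window and those of Il4ra, Il9r and Il21r held none. A match is a description of these letters only.

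Il7r, the receptor for the survival cytokine interleukin 7 and, with Crlf2, for TSLP, is known to mark naive and memory T cells. Il7r (probe set 10427628) stood at 9.55 and 9.75 in Cxcr5+Bcl6+ cells, 11.13 and 11.06 in Cxcr5+Bcl6- cells, and 11.34 and 11.13 in Cxcr5-Bcl6- cells. The Cxcr5+Bcl6+ arrays were lowest, while the other 2 groups overlapped slightly. Its level was 2.99-fold lower than in Cxcr5-Bcl6- cells (95% interval 2.55 to 3.52, adjusted p = 5.4e-07) and 2.72-fold lower than in Cxcr5+Bcl6- cells (2.32 to 3.19, adjusted p = 2e-06). Among the Bcl6- populations the difference was -0.14 (-0.37 to 0.09, adjusted p = 0.547). Crlf2 averaged 9.81 in Cxcr5+Bcl6+ cells, 10.14 in Cxcr5+Bcl6- cells and 10.25 in Cxcr5-Bcl6- cells, a fall of 0.44 in Cxcr5+Bcl6+ against Cxcr5-Bcl6- cells (log2, adjusted p = 0.00289).

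Il4ra takes part in the receptors for interleukin 4 and, with Il13ra1, interleukin 13. Il4ra (probe set 10557326) read 10.53 and 10.71 in Cxcr5+Bcl6+ cells, 12.02 and 12.06 in Cxcr5+Bcl6- cells, and 12.48 and 12.40 in Cxcr5-Bcl6- cells. The groups did not overlap, and the wide gap lay below the Cxcr5+Bcl6- arrays. Cxcr5+Bcl6+ cells were 3.54-fold below Cxcr5-Bcl6- cells (95% interval 3.06 to 4.08, adjusted p = 7.79e-08) and 2.68-fold below Cxcr5+Bcl6- cells (2.32 to 3.10, adjusted p = 9.68e-07). Cxcr5+Bcl6- cells were also 1.32-fold below Cxcr5-Bcl6- cells (1.14 to 1.52, adjusted p = 0.0183). That last call was lost when Cxcr5+Bcl6- replicate 1 was left out (adjusted p = 0.15), without Cxcr5+Bcl6- replicate 2 (0.0932), without Cxcr5-Bcl6- replicate 1 (0.0757), with all rows tested (0.0793) or with centring on the dim reference (0.067). Its partner Il13ra1 averaged 7.12 in Cxcr5+Bcl6+ cells, 6.62 in Cxcr5+Bcl6- cells and 6.49 in Cxcr5-Bcl6- cells, under the dim reference on every array.

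Il21r, the receptor for the helper cytokine IL-21, lies beside Il4ra on chromosome 7, with 0 protein-coding genes between them. Il21r (probe set 10557342) stood at 10.91 and 11.01 in Cxcr5+Bcl6+ cells, 11.50 and 11.57 in Cxcr5+Bcl6- cells, and 11.87 on each array of Cxcr5-Bcl6- cells. The 3 groups did not overlap, with Cxcr5+Bcl6+ cells lowest and Cxcr5+Bcl6- cells between. In Cxcr5+Bcl6+ cells it was 1.89-fold lower than in Cxcr5-Bcl6- cells (95% interval 1.65 to 2.16, adjusted p = 8.83e-06) and 1.49-fold lower than in Cxcr5+Bcl6- cells (1.31 to 1.71, adjusted p = 0.000597). The second difference, -0.58, became -0.91 with centring on the dim reference. Cxcr5+Bcl6- cells were 1.26-fold below Cxcr5-Bcl6- cells (log2 interval -0.53 to -0.14, adjusted p = 0.0303). This call ended without either Cxcr5+Bcl6- array (adjusted p = 0.291 without replicate 1 and 0.146 without replicate 2), without either Cxcr5-Bcl6- array (0.0813 and 0.0801), with all rows tested (0.0912), and with centring on the array median (0.0523) or on the dim reference (0.142).

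Il9r, the receptor for interleukin 9, was the one chain with a higher level in Cxcr5+Bcl6+ cells. Il9r (probe set 10384974) read 8.64 and 8.69 in Cxcr5+Bcl6+ cells, 7.85 and 8.05 in Cxcr5+Bcl6- cells, and 7.65 and 7.70 in Cxcr5-Bcl6- cells. The groups did not overlap, and all 6 arrays were above the dim reference, by little in Cxcr5-Bcl6- cells, where the reference stood at 7.30 and 7.46. The level was 1.99-fold higher than in Cxcr5-Bcl6- cells (95% interval 1.72 to 2.30, adjusted p = 8.66e-06) and 1.64-fold higher than in Cxcr5+Bcl6- cells (1.42 to 1.90, adjusted p = 0.000222). The 0.27 between the Bcl6- populations missed the threshold (adjusted p = 0.0993) and passed with centring on the dim reference (0.36, adjusted p = 0.0406). Dim probe sets as a whole were higher on the Cxcr5+Bcl6+ arrays. Of the 1223 reference probe sets, 423 passed as rises and 1 as a fall against Cxcr5-Bcl6- cells, and 573 as rises and 0 as falls against Cxcr5+Bcl6- cells. A rise as large as that of Il9r was seen in 1 of the 1223 against Cxcr5-Bcl6- cells and in 31 against Cxcr5+Bcl6- cells. With centring on this reference Il9r was higher by 0.75 against Cxcr5-Bcl6- cells and by 0.39 against Cxcr5+Bcl6- cells, in place of 0.99 and 0.72, and both passed (adjusted p = 4.29e-05 and 0.00773). B cells and mast cells can also carry Il9r. The summed linear level of 9 B cell markers was 3533 and 3710 in Cxcr5+Bcl6+ cells, 2354 and 2463 in Cxcr5+Bcl6- cells and 1379 and 1408 in Cxcr5-Bcl6- cells, with 8 of 9 higher in Cxcr5+Bcl6+ than Cxcr5-Bcl6- cells by the test and Cd79a and Cr2 above the dim reference on no array. That of 4 innate lymphoid and mast cell markers was 446 and 470, 694 and 728, and 570 and 602 in the same groups, with 1 of 4 lower in that comparison and Cpa3, Fcer1a and Mcpt4 above the dim reference on no array. Of the B cell markers Ebf1 (7.65 and 7.65) and Blk (7.36 and 7.34) also lay under the dim reference on both Cxcr5+Bcl6+ arrays. The sum of 6 germinal centre B and plasma cell markers ran the other way, at 7486 and 7661 in Cxcr5+Bcl6+ cells. It was 12940 and 13340 in Cxcr5+Bcl6- cells and 16440 and 16710 in Cxcr5-Bcl6- cells. Irf4 and Xbp1 were its brightest genes, and 3 of the 6 were lower and 0 higher in Cxcr5+Bcl6+ than Cxcr5-Bcl6- cells. The part of the B cell, plasma cell and mast cell lists in the Il9r result was not tested.

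**Figure D3:**
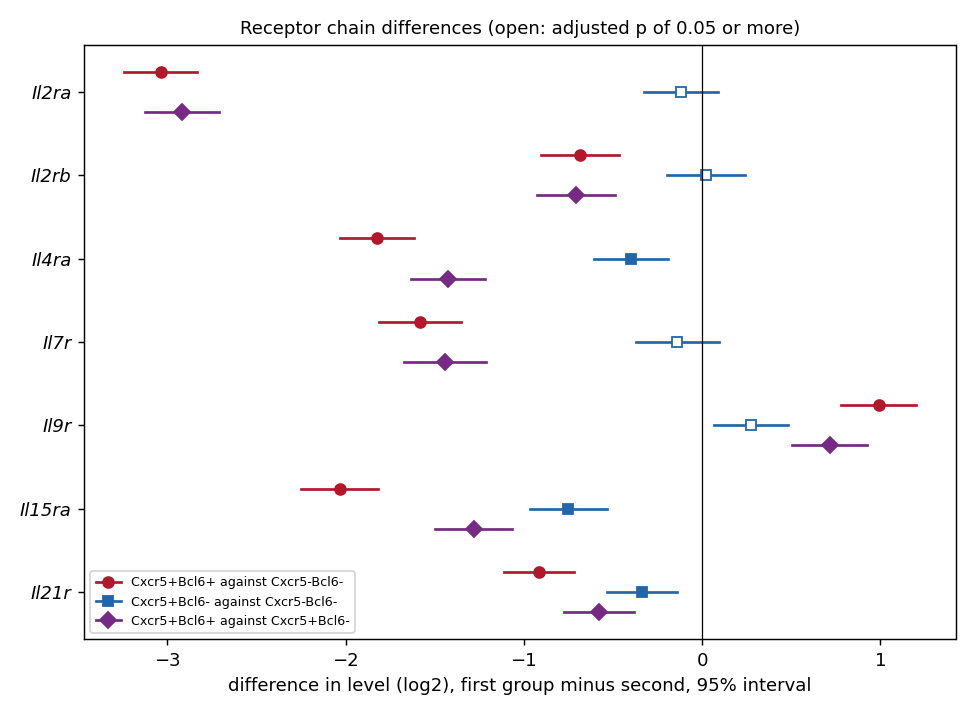
Difference in level (log2, first group minus second) of each receptor chain in the 3 comparisons, with 95% intervals from limma and open symbols where the adjusted p was 0.05 or more. The Cxcr5+Bcl6+ cells differ from both other groups in all 7 chains, and Il2ra, Il2rb, Il7r and Il9r are open in the comparison of the Bcl6- populations.

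In the order of group levels 6 chains were lowest in Cxcr5+Bcl6+ cells, and Il9r was highest there. The neighbouring Bcl6- populations were not separated by the test for Il2ra, Il2rb, Il7r and Il9r. Groups did not overlap for 7 of 7 chains between Cxcr5+Bcl6+ and Cxcr5-Bcl6- cells, against 62.6% of all named probe sets. They did not overlap for 7 of 7 between the Cxcr5+ populations (65.8%) and for 5 of 7 between the Bcl6- populations (50.1%), so non-overlap by itself was common.

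The 7 listed cytokines were those of the gamma chain and Tslp. Of these 4 fell and 1 rose in Cxcr5+Bcl6+ against Cxcr5-Bcl6- cells (5 and 0 with centring on the dim reference), with a median of -0.49. Between the Cxcr5+ populations 4 fell and 0 rose (6 and 0 with that centring), and between the Bcl6- populations 2 fell and 1 rose (0 and 1 with it). Tslp was not called in either comparison of Cxcr5+Bcl6+ cells, but was among the falls of both with that centring. Il2, the T cell growth factor, stood at 9.18 and 9.27 in Cxcr5+Bcl6+ cells, 11.93 and 11.71 in Cxcr5+Bcl6- cells, and 11.66 and 11.52 in Cxcr5-Bcl6- cells. Only the Cxcr5+Bcl6+ arrays were low. Il2 was 5.15-fold lower there than in Cxcr5-Bcl6- cells (adjusted p = 2.2e-08) and 6.04-fold lower than in Cxcr5+Bcl6- cells (adjusted p = 2.01e-08), while the 0.23 between the other 2 groups did not pass (adjusted p = 0.214). Il21 read 10.12 and 10.16 in Cxcr5+Bcl6+ cells, 10.94 and 10.79 in Cxcr5+Bcl6- cells, and 9.80 and 9.40 in Cxcr5-Bcl6- cells. It was highest in Cxcr5+Bcl6- cells, 2.40-fold above Cxcr5-Bcl6- cells (adjusted p = 5.91e-05), and in Cxcr5+Bcl6+ cells it was 1.46-fold above Cxcr5-Bcl6- cells (adjusted p = 0.00479, and 0.0793 with centring on the dim reference) and 1.65-fold below Cxcr5+Bcl6- cells (adjusted p = 0.00124). Il4, the T helper 2 cytokine, was 2.34-fold lower in Cxcr5+Bcl6+ cells, against Cxcr5-Bcl6- cells (9.07 and 9.11 against 10.41 and 10.22, adjusted p = 2.03e-06). Il7, Il15 and Tslp were not above the dim reference on any array, although Il15 was counted as a fall in both comparisons against Cxcr5-Bcl6- cells. Il9, a fall in both comparisons of Cxcr5+Bcl6+ cells, was above the dim reference on 4 of 6 arrays but on neither Cxcr5+Bcl6+ array. Its mean was 7.10 in Cxcr5+Bcl6+ cells, 7.40 in Cxcr5+Bcl6- cells and 7.59 in Cxcr5-Bcl6- cells.

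The kinases and STAT factors downstream were mixed. Of 7 measured genes of 9 listed, 3 rose and 3 fell between Cxcr5+Bcl6+ and Cxcr5-Bcl6- cells, with a median difference of 0.02 against 0.04 over all named probe sets. Stat5a and Stat5b, neighbouring genes for the paired STAT5 proteins, had differences of opposite sign. Stat5a was lower by 0.49 in Cxcr5+Bcl6+ cells (11.81 and 11.78 against 12.22 and 12.34, adjusted p = 0.0011), and Stat5b was higher by 0.33 (12.13 and 12.14 against 11.83 and 11.78, adjusted p = 0.00972). Stat3, the main factor of IL-21, fell by 0.37 (log2, adjusted p = 0.00552), and Stat6, that of interleukin 4, fell by 0.28 (adjusted p = 0.0309). Tyk2 (0.47) and Jak1 (0.26) rose, and Jak2 (0.02, adjusted p = 0.877) did not pass. Against Cxcr5+Bcl6- cells Stat5a (-0.41) and Stat3 (-0.39) fell and the other 5 did not pass. With centring on the dim reference no rise passed, with Stat5b at 0.09 (adjusted p = 0.473), Jak1 at 0.02 and Tyk2 at 0.23, while the 3 falls against Cxcr5-Bcl6- cells stayed called and Stat6 was also called lower against Cxcr5+Bcl6- cells (-0.47, adjusted p = 0.00136). Between the Bcl6- populations 0 of the 7 passed in limma (2 at an unadjusted p under 0.05), and Tyk2 (0.34, adjusted p = 0.123) passed with that centring (0.42, adjusted p = 0.0268).

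Genes known to respond to STAT5 fell with the receptor chains. Of 16 measured of 17 listed, 14 fell and 1 rose between Cxcr5+Bcl6+ and Cxcr5-Bcl6- cells, with a median of -1.77. Over all named probe sets 17.7% fell and 17.6% rose there, with a median of 0.04. Cish, a feedback inhibitor that STAT5 induces, stood at 9.19 and 9.09 in Cxcr5+Bcl6+ cells, 11.70 and 11.95 in Cxcr5+Bcl6- cells, and 12.28 and 12.39 in Cxcr5-Bcl6- cells, 9.18-fold lower in Cxcr5+Bcl6+ cells when set against Cxcr5-Bcl6- cells (adjusted p = 3.06e-09). The largest falls were in Gzmb (-5.09), Socs2 (-4.71), Cish (-3.20) and Lif (-2.55), which encode a cytotoxic protease, 2 inhibitors of cytokine signalling and a cytokine. Gzmb and Socs2 lay under the dim reference in Cxcr5+Bcl6+ cells, where a difference can be understated. The rise was in the kinase gene Pim2 (0.77), and Pim1 (-0.01, adjusted p = 0.921) did not pass. Between the Cxcr5+ populations 13 of 16 fell (13% of all named probe sets) and 0 rose, led by Gzmb (-5.22), Socs2 (-3.84), Cish (-2.69) and Lif (-2.04). Among the Bcl6- populations 8 fell (5.93% of all named probe sets), led by the survival gene Bcl2 (-0.99), Socs2 (-0.87), Lif (-0.51) and Cish (-0.51), and Pim2 rose (0.65). Other signals also drive many of these genes, and Tnfrsf9 stands in the regulatory T cell marker list too.

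**Figure D4:**
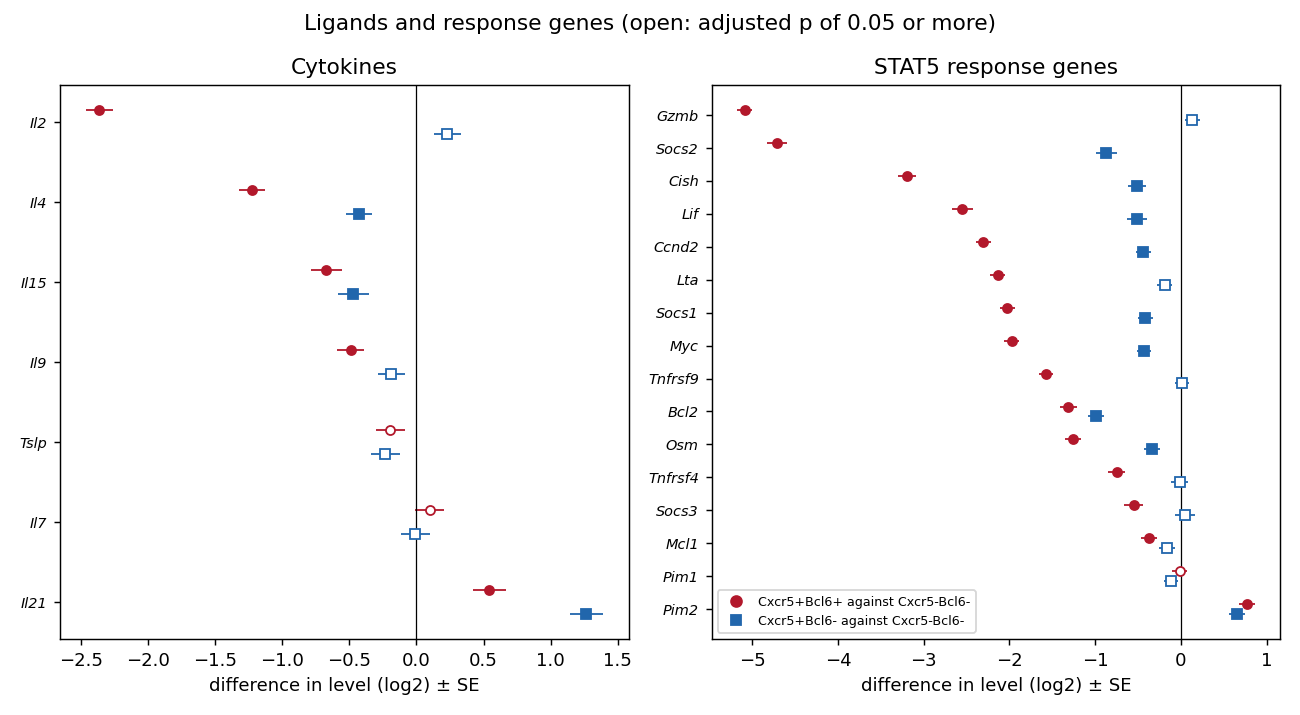
Difference in level (log2 ± SE) of the listed cytokines, Tslp among them (left), and of STAT5 response genes (right) in Cxcr5+Bcl6+ cells (red circles) and in Cxcr5+Bcl6- cells (blue squares), each against Cxcr5-Bcl6- cells, with open symbols where the adjusted p was 0.05 or more. Il2 lies at -2.36 for Cxcr5+Bcl6+ and at 0.23 for Cxcr5+Bcl6- cells, and Il21 lies right of 0 for both.

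Feedback and adaptor genes of interleukin 2 signalling were mixed, with 3 rises and 5 falls of 12 between Cxcr5+Bcl6+ and Cxcr5-Bcl6- cells (median 0.08, beside 17.6% rises and 17.7% falls over all named probe sets). The falls were led by the MAP kinase phosphatases Dusp5 (-2.07) and Dusp6 (-1.56), the adaptor gene Gab2 rose (0.91), and the phosphatase gene Ptpn2, which dampens JAK and STAT signals, fell by 0.68. Between the Cxcr5+ populations 3 rose and 3 fell, with Dusp5 (-1.20), Dusp6 (-1.05), Gab2 (0.84) and Ptpn2 (-0.51) moving most. For the Bcl6- populations 1 rose and 5 fell, Dusp5 (-0.87), Dusp6 (-0.52), Ptpn6 (-0.42) and Sh2b3 (-0.39) most. With centring on the dim reference these counts were 2 up and 5 down, 1 up and 7 down, and 1 up and 2 down, in the order given.

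Of 15 measured regulators known for the receptor genes, of 16 listed, 10 fell and 2 rose in Cxcr5+Bcl6+ against Cxcr5-Bcl6- cells, with a median of -0.95 (12 and 1 with centring on the dim reference). Tbx21 (-3.80) and Eomes (-1.43), T-box factors known to induce Il2rb, fell, as did Foxp3 (-2.89), Prdm1 (-2.12) and Gfi1 (-1.77), the last a repressor of Il7r. Eomes lay under the dim reference on both Cxcr5+Bcl6+ arrays and Prdm1 on 1 of them, where a difference can be understated. Foxo1, an activator of Il7r, was 11.72 in Cxcr5+Bcl6+ cells and 11.78 in Cxcr5-Bcl6- cells and did not pass (adjusted p = 0.643, and 0.0199 for a difference of -0.31 with centring on the dim reference). Gabpa, an ETS factor that binds the Il7r promoter, did not pass either (-0.25, adjusted p = 0.0658, and 0.00187 for -0.49 with that centring), and Ets1 rose (0.56). Against Cxcr5+Bcl6- cells 9 fell and 2 rose (13 and 0 with that centring), led by Tbx21 (-3.47), Foxp3 (-2.67), Prdm1 (-2.33) and Gata3 (-1.26). In the Bcl6- populations 4 fell, namely Gfi1 (-1.25), Eomes (-0.95), Bach2 (-0.62) and Tbx21 (-0.33), the last not called with that centring (adjusted p = 0.173). Il2rb and Eomes are also made by NK cells and CD8 T cells. Of 7 NK and innate-like markers the summed linear level was 908 and 977 in Cxcr5+Bcl6+ cells, 2213 and 2325 in Cxcr5+Bcl6- cells and 2215 and 2324 in Cxcr5-Bcl6- cells, with 5 lower and 1 higher in Cxcr5+Bcl6+ than Cxcr5-Bcl6- cells and Ncr1, Klrb1c and Klrk1 above the dim reference on no array. The sum of the 2 CD8 markers was 550 and 594, 614 and 650, and 1069 and 1085 in the same groups, with both lower in that comparison. Eomes is itself in the NK and innate-like list and is among its 5 lower markers. Nkg7 had the highest level of that list in Cxcr5+Bcl6- cells (10.50 and 10.40) and Cxcr5-Bcl6- cells (10.10 and 10.05). The part of the NK and CD8 lists in the Il2rb result was not tested.

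Receptor chains of other cytokine families were mixed. Of 20 measured of 22 listed, 6 rose and 8 fell between Cxcr5+Bcl6+ and Cxcr5-Bcl6- cells, with a median of 0.11 (5, 9 and -0.13 with centring on the dim reference). The interleukin 12 receptor chains Il12rb2 (-2.89) and Il12rb1 (-2.05) fell, as did Csf2rb (-1.85), whereas the interleukin 6 receptor chain Il6ra rose (0.92). Il12rb2 and Csf2rb lay under the dim reference on both Cxcr5+Bcl6+ arrays, so the size of their falls may be understated. Within the Cxcr5+ populations 6 rose and 10 fell (1 and 12 with that centring), led by Il12rb2 (-2.51), Il12rb1 (-2.11), Il23r (-1.49) and Il18rap (-1.19). The Bcl6- populations differed in 9 of the 20, with 4 rises and 5 falls (6 and 2 with that centring), and Csf2rb (-1.41), Il23r (1.09), Il1r2 (0.91) and Il18rap (0.65) changed most.

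The genes closest in pattern to each chain over the 6 arrays were found among 19937 others by the root-mean-square difference of levels centred per gene, as a description. For Il2ra they were the chemokine receptor gene Ccr8 (0.0711), the interferon-induced gene Ifit3 (0.103) and Gbp7 (0.119). For Il2rb they were Eaf1 (0.0346), Tnfrsf4 (0.036), which encodes the costimulator OX40, and Rhbdf2 (0.0391). Il4ra ran closest to Rnf213 (0.0397), Dkc1 (0.0496) and Slc14a1 (0.0599), and Il7r to Serpinb6b (0.0453), Cdca7 (0.0554) and Itgb8 (0.0691). Il15ra ran closest to Chsy1 (0.0553), the phosphatase gene Dusp5 (0.0636) and Ifrd2 (0.0748). Il21r was nearest to Rrad (0.0209), the amino acid transporter gene Slc1a5 (0.0244) and Fndc3a (0.0246), and Il9r to Galnt2 (0.0504), Fam43a (0.0625) and Zfpm1 (0.0641).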

How the data were processed

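RNA of 6 samples was hybridised to Affymetrix whole-transcript arrays. The authors deposited log2 probe-set levels, a scale inferred from their span of 3.45 to 15.0. GCOS 1.1, RMA and Affymetrix Expression Console are named, per the submitters' processing notes, with no order or settings. Detection calls and scanner files were not used here, and no source used here gives the genome build. RefSeq served for names, gene order and promoter sequences only. For arrays, their number limits the precision.

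Of 35556 rows, 23410 carried a gene symbol in the platform's annotation (21789 with 1 symbol, 1621 with several) and 12146 were unnamed here. Symbols were updated through Entrez identifiers for 21698. All named probe sets were fitted in limma 3.58.1 (R 4.3.3) with lmFit on group means over all 6 arrays and eBayes, as a two-sided moderated test with Benjamini-Hochberg adjustment over the 23410. There were 3 residual and 8.25 prior degrees of freedom. Where a listed gene had several probe sets, that of highest mean was kept, and no set test was run. The rule named all members, each ligand, JAK and STAT gene, up to 4 called genes of largest change per list and comparison, and the 3 genes nearest in pattern to a member. Any other gene was chosen after its values were seen. The members and lists were chosen with earlier results of these data known. The fit was tested on simulated data. Alternatives changed the variance model, normalization, filter, rows tested, arrays fitted, threshold and replicate term, and left out each array in turn.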

Additional observations from a re-analysis of the deposited data

How the results depend on the processing

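Over 19 alternatives for each of 21 chain differences (399 in all), 379 kept their direction and side of the threshold, 15 no longer passed, 3 newly passed and 2 turned in sign. Both turns were of the uncalled Il2rb difference between Cxcr5+Bcl6- and Cxcr5-Bcl6- cells, which ran from -0.0485 to 0.0927 when each array was left out in turn. In both comparisons of Cxcr5+Bcl6+ cells all 7 chains stayed called under every alternative, except that Il21r against Cxcr5+Bcl6- cells was under 1.5-fold. Between Cxcr5+Bcl6- and Cxcr5-Bcl6- cells the 3 called chains became 1 with all rows tested, 1 at a change of at least 1.5-fold, and 1 to 3 with an array left out, the 1 being Il15ra in each case. Counts over all named probe sets were 8255 for Cxcr5+Bcl6+ against Cxcr5-Bcl6-, 2610 for Cxcr5+Bcl6- against Cxcr5-Bcl6- and 6185 for Cxcr5+Bcl6+ against Cxcr5+Bcl6-. At 1.5-fold they were 3470, 822 and 1952. All rows gave 1579 for the second, centring on the dim reference gave 12610 for the third, and leaving out an array gave 1317 to 2624 for the second and 3617 to 6987 for the third, lowest without Cxcr5+Bcl6- replicate 1 (1317 and 3617), with 1401 and 3820 without Cxcr5+Bcl6- replicate 2. An array left alone in its group is taken to vary like the other groups. Apart from fewer arrays and stricter thresholds, the cause was not tested.

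Rises made up 49.8%, 46.8% and 50.8% of calls in these comparisons and 42.4%, 53.9% and 35% with centring on the array median. Replicate numbers are shared by the groups but are not stated to pair them. Deviations of replicate 1 correlated across probe sets at -0.05 between the Cxcr5+ populations, -0.23 between Cxcr5+Bcl6+ and Cxcr5-Bcl6-, and 0.26 between Cxcr5+Bcl6- and Cxcr5-Bcl6-. With the replicate block 7, 3 and 7 chains were called, as without it.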
